A study of Mus musculus with 6 samples.

Results

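Barcodes with tdTomato RNA were compared with barcodes without it inside 1 library of sorted mouse hypothalamic cells. The members are the 281 barcodes of panel 1 of replicate 1 with at least 1 UMI of the reporter transcript, named TdTomato_WPRE_bGH in the table. They are set against the 669 barcodes with none. A UMI is a molecular tag, so each stands for 1 captured RNA molecule. Both sides come from the 950 barcodes that held at least 20 UMIs and 5 genes, of 1555 barcodes in this library and 1729 in the 4 libraries whose gene set includes the reporter. All 605 barcodes not kept had fewer than 20 UMIs, and the minimum of 5 genes removed none further.

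The mice were C57/Bl6 of genotype KLB-CRE; Ai14, and all 6 libraries of the study come from this genotype, so no tissue without Cre was analysed here. Hypothalami of 3 animals were pooled for each of 3 captures, and dissociated cells were sorted for tdTomato fluorescence and for viability with Hoechst. Both sides of the comparison thus passed the same sort and come from the same 3 pooled animals. The age of the animals is not given in the sources used here. Captured RNA was amplified with primers for chosen genes (targeted BD Rhapsody, a single-cell method with barcoded beads), and this library covers 290 amplicons of 265 genes, reporter included. The library is labelled panel 1 but carries the gene set of the panel 2 libraries, and the labels do not say why.

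Klb encodes beta-Klotho, which pairs with FGF receptors to form the receptor of FGF21, a liver hormone that acts on the brain. In the Ai14 allele a stop cassette blocks tdTomato until Cre removes it, after which the cell and its descendants make the fluorescent protein for good. Reporter RNA therefore marks a history of Cre activity and not present Klb expression, and protein can be present where no transcript is captured. WPRE and bGH are the sequence elements at the end of the reporter transcript.

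The library is 1 capture, so barcodes are not biological replicates and no test was made. Shares are given with exact Clopper-Pearson 95% intervals and sums of UMIs with exact Poisson 95% intervals. These cover counting error only. The reporter itself chose the members, so its own values are a description. No barcode was shared with panel 2 of any replicate or with panel 1 of replicate 3. Barcodes were given no cell type names, so no class could be set aside as lacking a gene, and a share of barcodes with a UMI includes any free RNA.

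Reporter RNA was found more often the deeper the barcode. Counted without the reporter, the median depth was 130 UMIs with tdTomato and 41 without. The share with the reporter was 11.7% (54 of 460; 8.94 to 15.0%) among barcodes with 20 to under 50 other UMIs. It was 28.4% (61 of 215; 22.4 to 34.9%) from 50 to under 100, and 50% (74 of 148; 41.7 to 58.3%) from 100 to under 200. At 200 UMIs or more it was 71.8% (89 of 124; 63.0 to 79.5%). The intervals of neighbouring bins did not overlap. The share was 91.4% (32 of 35) at 400 UMIs or more, and 19 of the 20 deepest barcodes carried the reporter.

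The level of the reporter, set against all other RNA in the same barcodes, did not follow depth. In the 4 bins it was 4.16 (3.17 to 5.35), 4.92 (3.85 to 6.20), 4.89 (3.99 to 5.93) and 4.41 (3.87 to 5.00) UMIs per 1000 other UMIs, from shallow to deep. All 4 intervals overlap. Over all kept barcodes it was 4.57 per 1000 (4.17 to 5.00). The 605 barcodes not kept had a level of 4.90 per 1000 (3.37 to 6.88), although only 32 of them (5.29%) held a reporter UMI.

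**Figure D1:**
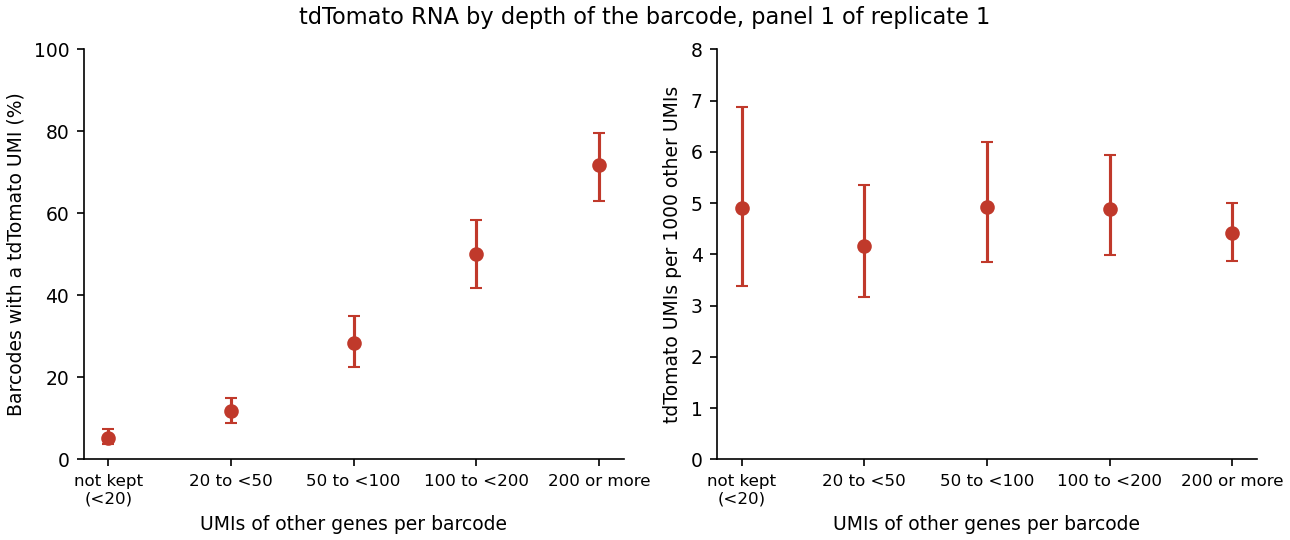
Share of barcodes with at least 1 tdTomato UMI (left, %) and tdTomato UMIs per 1000 UMIs of other genes (right), by UMIs of other genes per barcode; bars are 95% counting intervals (exact Clopper-Pearson left, exact Poisson right). The share climbs from 5.29% to 71.8%, while the level stays between 4.16 and 4.92 per 1000.

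At the threshold on depth, 11 of 149 barcodes with 15 to under 20 UMIs held the reporter (7.38%), against 15 of 129 with 20 to under 25 (11.6%). At the threshold on the reporter, 205 of the 281 members (73.0%) had exactly 1 reporter UMI. A further 41 had 2, 15 had 3 and 20 had 4 or more, up to a highest count of 20. The median depth of these 4 groups was 95, 186, 336 and 387 other UMIs. The side with tdTomato is thus mostly defined by a single molecule per barcode, and barcodes with more reporter molecules were deeper.

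Because depth differed, the sides were compared within the 4 bins of other UMIs. Values without the reporter were weighted to the bins of those with it. For 3 members the other genes fell below 20 UMIs, which left 278 with and 669 without. Binning did not make the depths equal. The median depth with and without was 31 and 30 UMIs in the first bin, 74 and 62 in the next, 143 and 133 in the third, and 336 and 227 at 200 UMIs or more. The 32 members with at least 400 UMIs held 29102 UMIs, 46.9% of all UMIs on their side, against 4.58% from 3 barcodes on the other. The deepest barcode had 3831 other UMIs with the reporter and 1117 without.

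For that reason values are also given at 35 UMIs, as the expected value when 35 UMIs are drawn from each barcode. Shares and numbers of genes are thereby compared at equal depth. An expected level does not change with the number drawn, so a fold at 35 UMIs compares means of each barcode's own level. Such folds are not matched for depth. Drawing 35 UMIs keeps 247 barcodes with and 395 without, and leaves out 34 and 274 shallower ones. It also gives each barcode the same weight, whereas in the bins deep barcodes weigh more, and it uses no bins. The parts of equal weight, fewer barcodes and no bins in the folds at 35 UMIs were not tested.

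More genes were detected in barcodes with tdTomato, and the difference was small at equal depth. The median number of other genes per barcode was 24 with and 22 without in the first bin, 42 and 38 in the next, 57 and 51 in the third, and 74 and 65 in the deepest. The mean was 53.1 with against a bin-weighted 45.7 without, a difference of 7.48 genes. At 35 UMIs it was 24.3 against 24.0, a difference of 0.300.

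**Figure D2:**
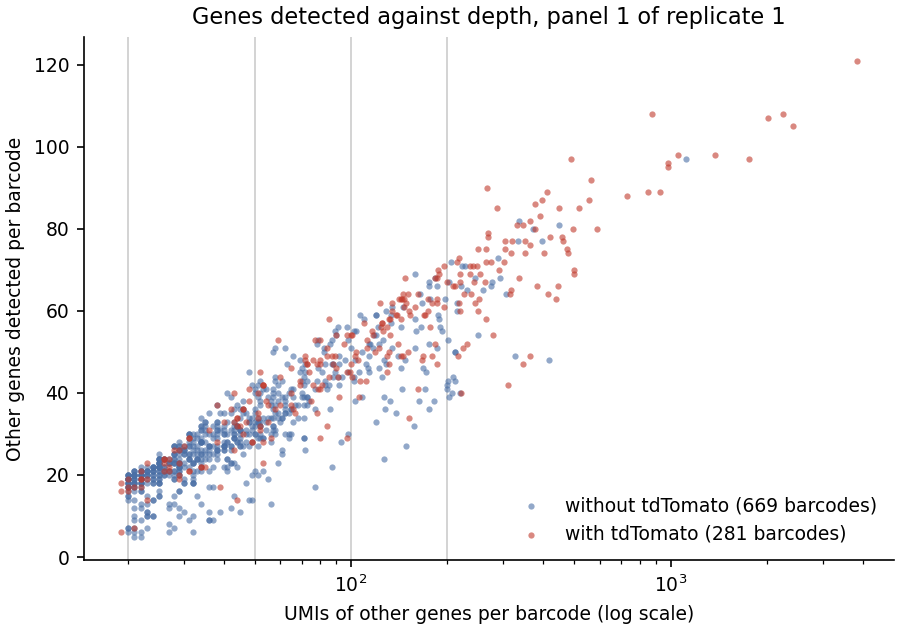
Number of other genes detected (vertical axis) against UMIs of other genes (horizontal axis, log scale) for each kept barcode, with 281 carrying tdTomato and 669 not; grey lines mark the lower edges of the 4 depth bins. The 2 sets of points lie along the same band, and those with tdTomato reach the greatest depth, 3831 UMIs.

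Of the 264 other genes, 156 had at least 1 UMI in the kept barcodes and 108 had none. Genes with at least 30 UMIs were compared, which left out 33 and kept 123. A gene was placed past the fold when its UMIs per 1000 differed at least 1.5-fold, with 0.1 per 1000 added to both sides, and its share of barcodes went the same way. By this rule 27 of 123 genes (22.0%) were higher with tdTomato and 3 of 123 (2.44%) were lower. The median fold over the 123 genes was 1.04, and folds ran from 0.307 to 3.16.

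At 35 UMIs the median over 121 genes was 1.05, with a narrower range of 0.482 to 2.45. Shares were also compared by both measures. The bin-weighted share was higher with tdTomato in 119 of 123 genes (96.7%), whereas at 35 UMIs it was higher in 75 of 121 (62.0%). In 92 of the 121 genes the shares at 35 UMIs differed by less than 2 percentage points. The widest differences there were those of Gm13498, 5.71 points higher with tdTomato, and Rarres2, a chemokine-like protein gene of ependymal cells, whose difference was -5.52 points. Both were chosen after their values were seen.

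The genes with the largest folds were rare transcripts. Plcd4, a phospholipase C gene, had 43 UMIs in 30 of 278 barcodes with tdTomato and 12 UMIs in 12 of 669 without. Its level was 0.693 per 1000 with (0.501 to 0.933) and 0.151 without, a fold of 3.16. One barcode held 11 of its 43 UMIs with tdTomato. By bin, from shallow to deep, its share was 1.85, 6.56, 6.76 and 22.5% with and 1.48, 1.3, 4.05 and 2.86% without. The share was higher with the reporter in all 4 bins, which held for 33 of 123 genes (26.8%). At 35 UMIs its fold was 2.45.

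Gabra3, a subunit gene of the GABA-A receptor, stood at 1.45 per 1000 with and 0.515 without (fold 2.52). One barcode held 35 of its 90 UMIs on the side with tdTomato, and at 35 UMIs the fold was 1.14. Snx32, a sorting nexin gene, also had a fold of 2.52, with 22 of 47 UMIs in 1 barcode and a fold of 1.04 at 35 UMIs. Nme5, a gene of motile cilia and flagella, followed at 2.28, with 39 of 100 UMIs in 1 barcode and a fold of 1.26 at 35 UMIs. Without barcodes of at least 400 UMIs the folds were 1.61 for Gabra3, 2.01 for Snx32 and 1.32 for Nme5, so Gabra3 and Snx32 were still past the fold and Nme5 was not. Without the deepest 5% they were 1.56, 1.48 and 1.32.

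Ppp1r1b, a phosphatase regulator of dopamine-responsive neurons, had a fold of 2.12 in bins and 1.70 at 35 UMIs, with 16 of 34 UMIs in 1 barcode. Rspo3, a secreted enhancer of Wnt signalling, had 2.11 and 1.34. Ninl, a centrosomal gene, had 2.09 and 1.3, and Cox6a2, a subunit of cytochrome c oxidase, had 2.01 and 1.0. Mgat4b, a glycosyltransferase gene, had 1.89 in bins and 2.23 at 35 UMIs, from 29 UMIs with and 7 without. Of these 5, Cox6a2 was level in UMIs between the sides at 35 UMIs, and the others were above 1. Single barcodes held 40 of the 126 Cox6a2 UMIs with tdTomato and 27 of the 84 without. Its share was higher with tdTomato in all 4 bins, and was 5.64% with and 4.36% without at 35 UMIs.

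Thrb, Tshb and Crym were also among the 27. Thrb, a nuclear receptor of thyroid hormone, was in 7.41, 14.8, 16.2 and 29.2% of barcodes with tdTomato by bin, against 3.94, 7.79, 9.46 and 14.3% without. Its level was 1.72 per 1000 (1.41 to 2.08) against 0.765, a fold of 2.11 that was 1.31 at 35 UMIs. One barcode held 31 of its 107 UMIs with tdTomato. Tshb, the beta subunit of thyrotropin, had a fold of 1.98, with 55 of 148 UMIs in 1 barcode, and 1.5 at 35 UMIs. Crym, which binds thyroid hormone inside cells and marks tanycytes, had 1.87, but 0.986 at 35 UMIs.

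Thrb, like Plcd4, was thus higher in share in every bin, while Crym was lower with tdTomato in the 2 shallow bins. Its shares there were 18.5 and 37.7% with against 21.2 and 44.2% without. In the 2 deep bins they were 66.2 and 88.8% with against 48.6 and 62.9% without.

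**Figure D3:**
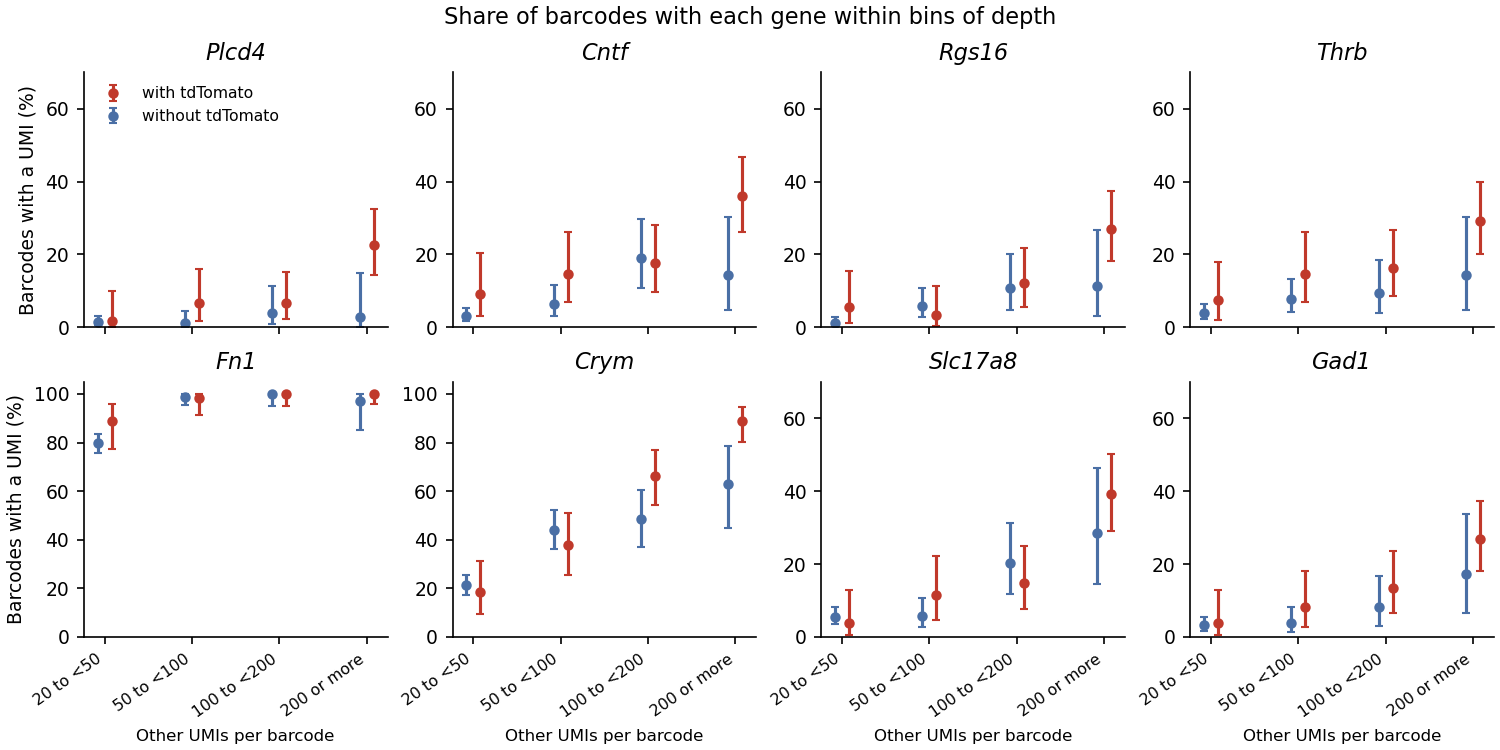
Share of barcodes with at least 1 UMI (%) of 8 genes, by bin of other UMIs, with (red) and without (blue) tdTomato; bars are exact Clopper-Pearson 95% intervals. Plcd4 and Thrb are higher with tdTomato in each bin, while Crym is lower in the 2 shallow bins and higher in the 2 deep ones.

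Cntf, a neurotrophic factor of glia, and Rgs16, a brake on G protein signalling, were the genes past the fold in each of 6 ways of computing it. These were the 4 bins, 9 bins, the mean of each barcode's own level in bins, and leaving out the deepest 5% of barcodes. The others were leaving out those with at least 400 UMIs and expected values at 35 UMIs, and only the latter used no bins. The last 5 ways put 26.0, 11.4, 10.4, 14.5 and 10.7% of genes past the fold on the high side. The genes past it in all 6 are 2 of 123 (1.63%), and both were singled out after their values were seen. Cntf was in 59 of 278 barcodes with tdTomato (21.2%; 16.6 to 26.5%) against a bin-weighted 11.7% without, at 1.60 (1.3 to 1.94) and 0.883 per 1000. By bin its share was 9.26, 14.8, 17.6 and 36.0% with and 3.20, 6.49, 18.9 and 14.3% without, so the third bin went the other way. Its folds ran from 1.53 with 9 bins to 1.88 without the barcodes of at least 400 UMIs, with 1.64 at 35 UMIs. Its 2 amplicons gave folds of 1.80 and 1.55.

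Rgs16 was in 38 of 278 barcodes with tdTomato (13.7%; 9.86 to 18.3%) against a bin-weighted 8.06% without, at 0.983 (0.752 to 1.26) and 0.573 per 1000. One barcode held 18 of its 61 UMIs. Its folds ran from 1.61 in 4 bins to 2.25 with 9 bins, with 2.07 at 35 UMIs, and the share was lower with the reporter in the bin of 50 to under 100 UMIs, at 3.28 against 5.84%. Plcd4 and Mgat4b also stayed past the fold in all 6 ways, once the minimum of 30 UMIs was set aside where barcodes were left out. These calls did not hold under every other setting. With at least 2 reporter UMIs asked for, the folds were 4.71 for Plcd4, 1.56 for Cntf and 1.18 for Rgs16, and Mgat4b had 25 UMIs, too few to compare. With no depth adjustment they were 2.10 for Plcd4, 2.16 for Mgat4b, 1.19 for Cntf and 1.49 for Rgs16.

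The 27 genes were chosen by their folds in bins, so their folds by other measures are a description. Their median fold was 1.76 in bins and 1.18 at 35 UMIs, where it ran from 0.838 to 2.45. In 16 of the 27, more than 20% of the UMIs with tdTomato came from 1 barcode, against 29 of all 123 genes compared (23.6%). Leaving out barcodes of at least 400 UMIs gave 17 of 117 genes higher (14.5%), of which 10 were among the 27. At 35 UMIs there were 13 of 121 (10.7%), of which 6 were. The part of unequal depth within the bins and of single barcodes in the other folds was not tested.

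**Figure D4:**
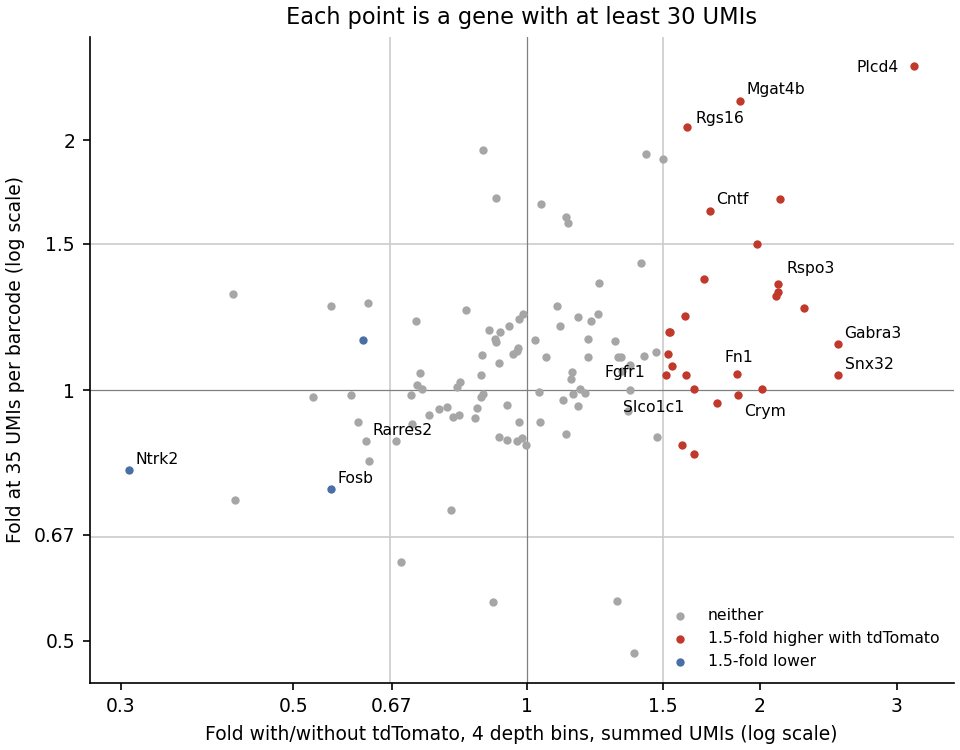
Fold with against without tdTomato at 35 UMIs per barcode (vertical axis) and in 4 depth bins (horizontal axis), both on log scales, for genes with at least 30 UMIs; grey lines mark 1 and 1.5-fold either way. Most genes past 1.5-fold in bins lie near 1 at 35 UMIs, with a median of 1.18. On both axes 6 lie above 1.5, among them Plcd4, Mgat4b, Rgs16 and Cntf.

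On the low side, Ntrk2, the receptor of BDNF, stood at 0.467 per 1000 (0.313 to 0.671) with tdTomato and 1.75 without, a fold of 0.31 that was 0.80 at 35 UMIs. By bin it was in 3.70, 4.92, 8.11 and 15.7% of barcodes with and 1.97, 5.19, 8.11 and 20.0% without, so the shares were close. At 200 UMIs or more, the bin that weighs most in the level, 21 of its UMIs without tdTomato lay in 7 of 35 barcodes. The level of Ntrk2 there was 0.398 per 1000 with and 2.11 without. In the shallow bin 24 of its UMIs without tdTomato lay in 8 barcodes, but that bin weighs little. Fosb, an early response gene, had a fold of 0.56, or 0.76 at 35 UMIs, and was in 23.0% of barcodes with and 23.1% without. Nfix, a transcription factor gene, had a fold of 0.62 from 34 UMIs in all, but 1.0 with 9 bins. A further 9 genes were at least 1.5-fold lower in level but not in share, which makes 12 of 123 (9.76%) by level alone. Among them were Acta2, smooth muscle actin (0.53, or 0.98 at 35 UMIs; share 64.7 against 56.1%), and Rarres2 (0.62, or 0.87; 94.2 against 93.8%).

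The receptor of FGF21 was measured by Klb, Fgfr1 and Fgfr2. Klb had no UMI in any of the 950 barcodes, which allows a share of up to 0.316%, and up to 1.07% of the 281 with tdTomato. Each limit is 3 divided by the number of barcodes, not the exact interval, which reaches higher. The limits apply to barcodes with a Klb UMI, not to cells that express Klb, which can be more common at this depth. Fgfr1, the main partner of beta-Klotho for FGF21, was in 64.4% with (58.4 to 70.0%) and 54.1% without. Its level was 10.9 (10.1 to 11.8) and 8.03 per 1000, a fold of 1.36. By bin, from shallow to deep, the level was 5.53, 7.70, 10.0 and 11.7 with and 9.82, 9.50, 6.65 and 8.14 without. Fgfr1 was thus lower with tdTomato in the bins under 100 UMIs and higher in the deeper ones. One barcode held 36.1% of its UMIs with tdTomato, and at 35 UMIs it was in 25.9% on either side. Fgfr2 had 52 UMIs, with a fold of 1.43 in bins and 1.92 at 35 UMIs, where its share was 1.77% with and 1.65% without. In the first bin 1 barcode held all 5 of its UMIs with tdTomato. Over all bins the highest count in 1 barcode was 10 of 36. In the 4 bins neither Fgfr1 nor Fgfr2 was past the fold. Fgfr2 was past it with 9 bins (2.14) and by the mean of each barcode's level (2.07). It was not past it without the deepest 5% (1.28) or barcodes of at least 400 UMIs (1.22).

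The transmitter genes measured were sparse on both sides. Slc17a6, a glutamatergic marker, and Slc32a1, a GABAergic one, were not measured. Slc17a8, a vesicular glutamate transporter, was in 19.8% with (15.3 to 25%) and 16.9% without, with a fold of 1.14 in bins and 1.03 at 35 UMIs. Slc17a7, another of that family, had no UMI. Gad1, which makes GABA, was in 14.7% with (10.8 to 19.5%) and 9.12% without. By bin Gad1 was in 3.70, 8.20, 13.5 and 27% with and 3.20, 3.90, 8.11 and 17.1% without, higher with tdTomato in each. Its fold was 1.40 in bins and 1.42 at 35 UMIs. Gad1 was past the fold in the other 4 of the 6 ways described for Cntf. Its folds there were 1.56 with 9 bins and 1.62 by the mean of each barcode. They were 1.95 without the deepest 5% and 1.82 without barcodes of at least 400 UMIs. Gad2, the other GABA synthesis gene, had 28 UMIs and was not compared by fold. Its share was 5.04% with and 2.69% without.

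Lists of marker genes were summed to see which other cell types moved with the reporter. The endothelial list, with 3 of 9 genes measured, had all 3 past the fold, against 22.0% of all genes compared. These were Slco1c1 (1.65), a thyroxine transporter, Slco1a4 (1.61), an organic anion transporter, and Slc2a1 (1.51), the glucose transporter of the blood-brain barrier. The list's level per 1000 with and without was 78.0 and 77.6 in the first bin, 64.3 and 74.2 in the next, 69.9 and 69.9 in the third, and 106.6 and 56.3 at 200 UMIs or more. Without barcodes of at least 400 UMIs the 3 folds were 1.12, 1.06 and 1.07, and at 35 UMIs 1.0, 1.04 and 1.04. By the mean of each barcode's level in the 4 bins they were 1.12, 1.10 and 1.07. In the bin of 50 to under 100 UMIs the list was lower with tdTomato, and only in the deepest bin was it clearly higher.

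Fn1, fibronectin, was higher with tdTomato in the third bin and the deepest and lower in the others. Its level was 38.7, 37.1, 43.1 and 67.1 per 1000 by bin with tdTomato and 40.9, 42.8, 32.6 and 30.6 without, a fold of 1.87. One barcode with 956 Fn1 UMIs held 25.7% of those on its side. The fold was 1.11 without barcodes of at least 400 UMIs, 1.14 by the mean of each barcode's level and 1.04 at 35 UMIs. The fibroblast and matrix list had 4 of 7 genes measured, with Col1a1 at 0 and 1 of 3 compared genes past the fold. Its summed fold was 1.73 in bins and 1.03 at 35 UMIs.

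The tanycyte list, 4 of 9 genes measured, had 1 of 4 past the fold (Crym) and a summed fold of 1.41, or 1.07 at equal depth. Gpr50, a tanycyte receptor gene, was at 1.47 and 1.11, and Vim, an intermediate filament gene, at 1.20 and 1.10. The pars tuberalis is the gland tissue next to the median eminence. Its list had 3 of 5 genes measured, Cyp2f2 at 0 and both compared genes, Tshb and Timeless, past the fold. Timeless had 1.53 in bins and 1.18 at equal depth. Its summed level was 1.66, 5.44, 4.97 and 5.25 per 1000 by bin with and 3.80, 3.92, 3.08 and 2.71 without. The summed fold was 1.74, or 1.31 at equal depth.

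Some lists were lower with tdTomato in the bins. The mural list (2 of 7 genes measured) had a fold of 0.59, the ependymal list (3 of 6, Tmem212 at 0) 0.63, the myeloid list (Fcer1g alone of 12) 0.68 and the precursor list (2 of 6) 0.77. No gene of these 4 lists was past the fold on both level and share. At 35 UMIs the 4 folds were 1.0, 0.88, 0.87 and 0.95. The level of Rarres2 was lower with tdTomato in the deepest bin, at 34.5 per 1000 with against 62.1 without at 200 UMIs or more, and was close in the first, at 43.7 against 44.4.

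Lists of neurons and glia differed among themselves. The astrocyte list (3 of 10 measured, Slc1a2 at 0) had a fold of 0.97 in bins and 1.02 at 35 UMIs. The neuron list (3 of 10 measured, Syt1 at 0) had 0.96 and 1.54, from 142 UMIs in all. The latter was the widest fold of any list at 35 UMIs. By bin its level was 1.11, 4.08, 0.750 and 1.17 per 1000 with and 1.19, 1.76, 1.44 and 1.31 without. The list was thus higher with tdTomato only from 50 to under 100 UMIs, where Stmn2 had 16 UMIs in 8 of 61 barcodes. The GABAergic list (2 of 3 measured) had 1.48 and 1.36, and the glutamatergic list (2 of 3, Slc17a7 at 0) 1.14 and 1.03. The ventromedial list (3 of 6), from 102 UMIs, had 1.15 and 1.26. Immediate early genes stood at 0.90 and 0.97, with Fosb the 1 gene of 4 past the fold. The metallothionein gene Mt2 had 1.19 and 0.99, the clock list 1.07 and 1.13, and the metabolic list 0.93 and 0.84. The 1 neuropeptide gene measured, Pdyn, had no UMI.

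**Figure D5:**
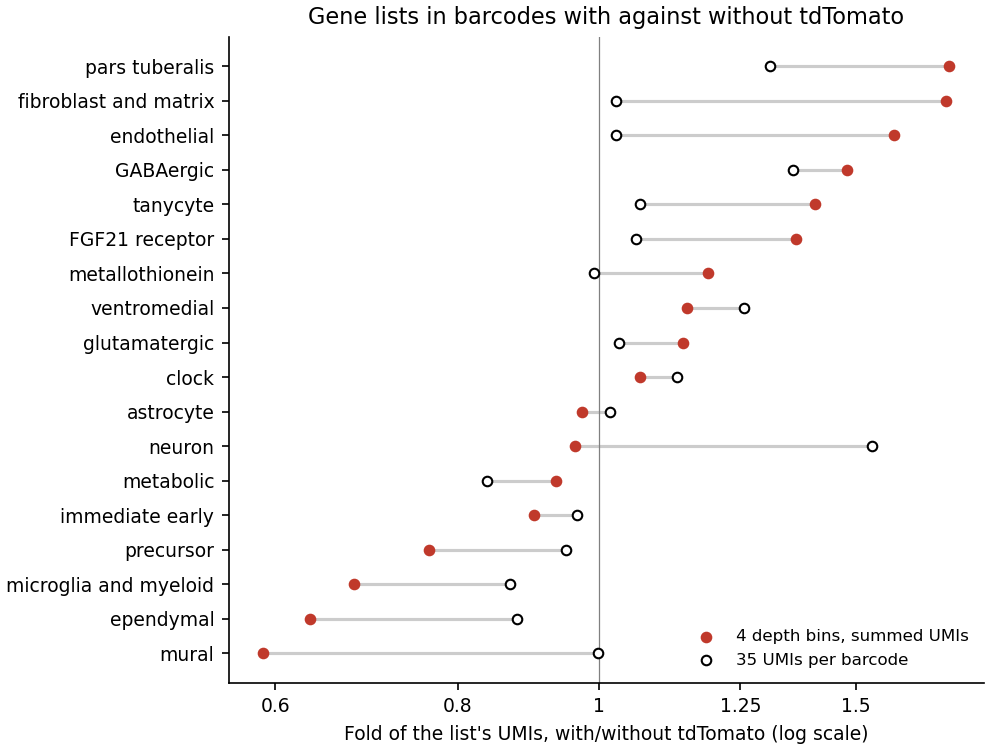
Fold of the summed UMIs of 18 marker lists, with against without tdTomato (log scale), in 4 depth bins (filled) and at 35 UMIs per barcode (open). The endothelial and the fibroblast and matrix lists move from 1.59 and 1.73 to 1.03, and the mural list from 0.59 to 1.0, between the bins and the 35-UMI value.

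Genes in most barcodes differed little at 35 UMIs. Of the 10 most widespread genes, Bcas1 was in 99.3% of barcodes with tdTomato and 98.3% without, with a fold of 0.98 in bins and 0.91 at 35 UMIs. The proteoglycan gene Cspg4 had 0.75 and 0.93, the membrane-binding gene Anxa2 0.77 and 0.95, the corepressor gene Trim28 0.88 and 0.99, and the early response gene Btg2 0.80 and 0.93. The mitochondrial carrier gene Ucp2 had 0.99 and 0.88. None of these 6 reached 1.5-fold either way. Of the other widespread genes, all given above, Fn1 (1.87) and Slco1c1 (1.65) were past the fold in bins. Rarres2 was at least 1.5-fold lower there in level but not in share, and Mt2 had 1.19.

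The comparison could not be repeated in another capture. Panel 1 of replicates 2 and 3 has a gene set without the reporter. In panel 2 of replicate 2, 41 of 43 barcodes held the reporter at 3.79 UMIs per 1000, and in panel 2 of replicate 3, 86 of 87 at 5.36 per 1000. That leaves 2 and 1 barcodes without it. In panel 2 of replicate 1 none of 44 barcodes held a reporter UMI, which allows a share of up to 6.82%, or 8.04% by the exact interval. The median depth of these 3 panel 2 libraries was 1349, 1064 and 115.5 other UMIs in the same order.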

How the data were processed

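Raw UMI counts for each barcode and amplicon were deposited by the authors. Per the file headers, version 1.3 of the BD Targeted Rhapsody Analysis Pipeline produced them, and per the table's name UMI errors had been corrected (RSEC). The submitters' processing notes name build mm9. The rule for calling cells is not given in the sources used here. Of the columns, the 80 beyond the 290 amplicons held 0 UMIs in this library, and the number of columns that matched no sample was 0. Amplicons of a gene were summed. Kept barcodes held 105772 UMIs, 481 of them from the reporter. No doublets were called, and the deepest 5% of barcodes were left out as an alternative. Calculations used scipy 1.17.1, pandas 2.3.3 and numpy 2.4.6 under Python 3.11.15, figures used matplotlib 3.10.9, and the calculation was tested on simulated data.

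Members and lists were chosen with earlier results of these data known. Genes named are the 12 largest and 12 smallest folds past 1.5-fold, receptor and transmitter genes, the 10 most widespread, and the 4 members of each list with the most UMIs. Results on certain genes, among them the oligodendrocyte list as a sum, are not reported here.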

Additional observations from a re-analysis of the deposited data

How the results depend on the processing

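The share with tdTomato was 46.2% with at least 50 UMIs per barcode, 26.4% without the deepest 5% of barcodes and 8% when at least 2 reporter UMIs were asked for. The number of genes higher was 12 without the deepest 5%, 11 with no depth adjustment and 14 from the mean of each barcode's level. It was 17 without barcodes of at least 400 UMIs and 13 at 35 expected UMIs, and these last settings were chosen after seeing the data. The number lower was 0 with no depth adjustment, 7 among genes with at least 10 UMIs and 1 among those with at least 100. A minimum of 10 UMIs compares more genes and a minimum of 100 fewer. These 7 and 1 thus cannot be set directly against the 3 of 123 (2.44%) of the main setting. The difference in genes per barcode was 14.8 with at least 2 reporter UMIs, 21.9 with no depth adjustment, 0.348 when thinned at random to 35 UMIs and 0.300 at 35 expected UMIs. 

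Among the genes named by the rule above and past the fold in the 4 bins, some folds crossed 1. They were those of Nfix (1.0 with 9 bins and 1.15 at 35 expected UMIs), Crym (0.976 thinned at random and 0.986 at 35 expected UMIs), and, thinned at random, Ntrk2 (1.02), Slc2a1 (0.929) and Snx32 (0.968). At 35 expected UMIs Lmo7 (0.838), Enkur (0.860) and Stra6 (0.965), also among the 27 genes higher, were below 1. Crossings by lists and by genes not past the fold are left out. The causes of the changes in this and the preceding paragraph were not tested. Of 965 values for 75 gene and list results under 13 settings, 552 stayed inside the counting interval of the value reported, 406 lay outside it, and 7 reversed. Only genes past the fold could count as reversed. No paired analysis was possible because the comparison lies within 1 library. A gene with under 30 UMIs was not compared, and a single capture gives no spread between animals.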
